A study of Mus musculus with 6 samples.

Results

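The mouse Schlafen genes were followed in LSK cells, the lineage-negative, Sca-1-positive, c-Kit-positive fraction of bone marrow that holds blood stem cells and multipotent progenitors. The genes were the 7 rows of the deposited table whose symbol is Slfn1, Slfn2, Slfn3, Slfn4, Slfn5, Slfn8 or Slfn9, out of 22381 rows in all. RNA sequencing compared 3 samples labelled Tgif1-/- with 3 samples labelled WT, from C57BL/6 mice aged 8 to 12 weeks, with a common harvest of about 200 ng RNA. Tgif1 encodes a homeodomain repressor linked to TGF-beta and retinoic acid signalling. The labels give no further allele or agent in either group, do not say how the Tgif1 allele was made, and do not say whether each sample is a different animal. The table holds 1 FPKM value per group (fragments scaled to transcript length and to the mapped total), with no value for a single sample, so the spread between samples and the depth are unknown.

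Schlafen proteins are named after the German word for sleep, because the first member described held back the growth of T cells. All carry a conserved Schlafen core. The short forms (Slfn1, Slfn2) have little beyond it, the intermediate forms (Slfn3, Slfn4) add a further domain, and the long forms (Slfn5, Slfn8, Slfn9) add a helicase-like part. Many are switched on by type I interferon. Several bind or cut tRNA, and mouse Slfn2 is needed to keep T cells and monocytes quiescent. Quiescence of these stem cells is a subject of the series title.

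Windows of 250 bases before the annotated starts are shown for the long forms, which hold an interferon-type motif there, and for Slfn2, which differed most between the groups among members with a test. They are RefSeq sequences on GRCm38.p6, 5′ to 3′ on the gene's own strand, and capitals mark a match, on either strand, to the core of the interferon-stimulated response element, which is GAAA, any NN, then GAAA.
Slfn8, chr11:83020811-83021060, minus strand: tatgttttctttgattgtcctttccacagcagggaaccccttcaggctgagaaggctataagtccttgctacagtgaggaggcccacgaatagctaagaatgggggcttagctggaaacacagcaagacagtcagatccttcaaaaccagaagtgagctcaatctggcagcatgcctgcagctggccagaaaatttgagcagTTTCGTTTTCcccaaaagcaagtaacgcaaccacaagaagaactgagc
Slfn9, chr11:82991831-82992080, minus strand: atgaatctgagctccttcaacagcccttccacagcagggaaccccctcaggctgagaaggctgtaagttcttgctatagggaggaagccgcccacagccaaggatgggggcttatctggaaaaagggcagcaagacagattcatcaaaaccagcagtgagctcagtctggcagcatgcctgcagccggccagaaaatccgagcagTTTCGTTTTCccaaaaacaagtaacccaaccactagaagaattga
Slfn5, chr11:82951852-82952101, plus strand: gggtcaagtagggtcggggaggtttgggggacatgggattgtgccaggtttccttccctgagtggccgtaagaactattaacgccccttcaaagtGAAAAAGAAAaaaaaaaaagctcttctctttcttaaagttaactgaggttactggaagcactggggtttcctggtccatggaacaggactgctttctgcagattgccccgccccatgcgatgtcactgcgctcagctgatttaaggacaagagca
Slfn2, chr11:83064862-83065111, plus strand: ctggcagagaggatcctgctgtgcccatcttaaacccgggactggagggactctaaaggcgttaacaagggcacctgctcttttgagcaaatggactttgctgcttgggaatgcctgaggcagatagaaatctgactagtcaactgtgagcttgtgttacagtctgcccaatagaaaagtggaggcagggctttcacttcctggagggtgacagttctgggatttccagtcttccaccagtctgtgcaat
These positions are GRCm38.p6 and are not on the scale of the deposited table. In Slfn8 the match is TTTCGTTTTC, starting 48 bases before the start, and in Slfn9 the same letters begin 45 bases before it. Slfn8 has a further annotated start, whose window holds the same match 136 bases before it. The Slfn5 match, GAAAAAGAAA, begins 155 bases before the start and runs into a stretch of adenines. The windows of Slfn8 and Slfn9 shown here matched at 206 of 242 aligned bases, or 85.1%.

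The motif was searched in 300-base windows, from 250 bases before to 50 after each start, and all 7 members had at least 1 of 8 such windows. It was present in 4 of the 8 windows, those of Slfn5, Slfn8 and Slfn9, and in 3.44% of 32851 windows of all genes. The windows of Slfn8 overlap and hold the same site, and that of Slfn9 is closely alike, so these 4 windows are not independent occurrences. No match was found in the windows of Slfn1, Slfn2, Slfn3 or Slfn4. The core of a STAT site, TTCNNNGAA, which reads the same on both strands and was searched separately, was in 0 of the 8 windows and in 8.30% of all windows. A match of letters does not show a bound site, and a window without one shows only that these letters are not there.

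The long forms Slfn8 and Slfn9 were the most abundant Schlafen transcripts, and the order of the 7 members by FPKM was the same in both groups. Slfn8 (ENSMUSG00000035208), a long form with the helicase-like part, stood at 31.7 FPKM in the Tgif1-/- group and 31.9 FPKM in the WT group. Slfn9 (ENSMUSG00000069793), its close relative, stood at 20.1 FPKM in the Tgif1-/- group and 22.0 FPKM in the WT group. Together they made up 69.6% of the summed Schlafen FPKM in the Tgif1-/- group and 73.7% in the WT group. The sum over all 7 members was 74.4 FPKM in the Tgif1-/- group and 73.1 FPKM in the WT group. Slfn3, Slfn8 and Slfn9, whose tests failed, made up 81.6% of that sum in the Tgif1-/- group and 87.1% in the WT group. Slfn2, Slfn4 and Slfn5, which were tested, summed to 13.7 FPKM in the Tgif1-/- group and 9.18 FPKM in the WT group. Slfn8 lay above 73.6% of the tested genes in mean log2 FPKM, and Slfn9 above 64.6%.

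Slfn3 (ENSMUSG00000018986), an intermediate form studied in T cells and gut epithelium, followed at 8.93 FPKM in the Tgif1-/- group and 9.77 FPKM in the WT group. Slfn5 (ENSMUSG00000054404), a long nuclear form, came next at 7.70 FPKM in the Tgif1-/- group and 6.05 FPKM in the WT group. Slfn2 (ENSMUSG00000072620), the quiescence factor, stood at 4.83 FPKM in the Tgif1-/- group and 2.18 FPKM in the WT group. These 3 members therefore sat in the middle of the family in both groups, with Slfn2 at 6.49% of the family sum in the Tgif1-/- group and 2.98% in the WT group.

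Slfn4 (ENSMUSG00000000204), an intermediate form of the macrophage and myeloid lineage, was low, at 1.17 FPKM in the Tgif1-/- group and 0.951 FPKM in the WT group. Slfn1 (ENSMUSG00000078763), the founding short form, which slows T cell growth, was nearly absent, at 0.0167 FPKM in the Tgif1-/- group and 0.260 FPKM in the WT group. Leaving out Slfn1, the highest member exceeded the lowest 27.2-fold in the Tgif1-/- group and 33.6-fold in the WT group. With no spread between samples, neighbours in this order cannot be tested against each other.

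**Figure D1:**
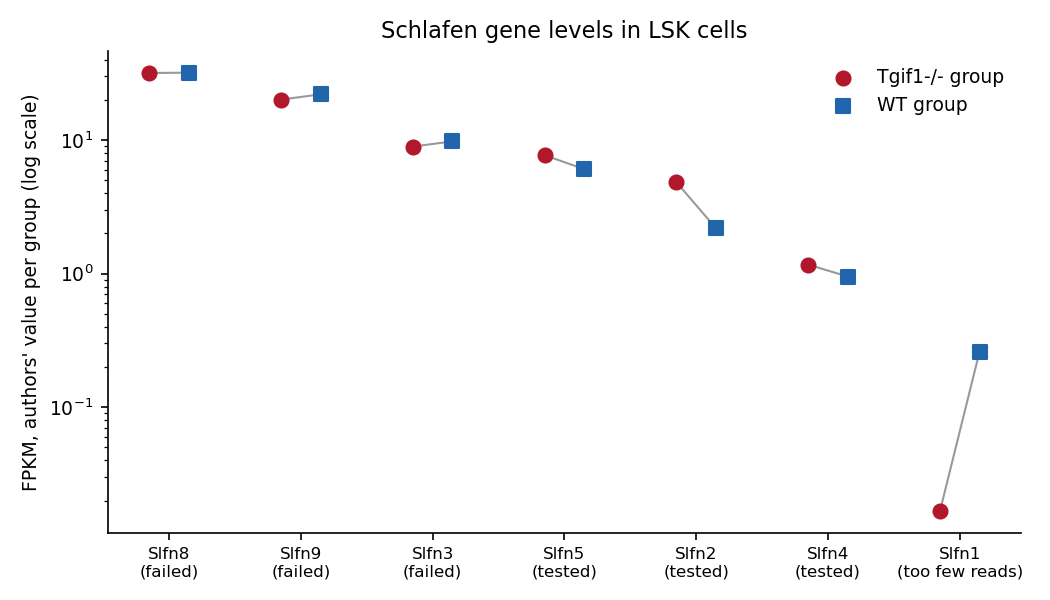
FPKM of the 7 Schlafen genes on a log axis, 1 authors' value per group (circles, Tgif1-/-; squares, WT), with each gene's test status in brackets and no error bars because the table gives no value per sample. The pairs lie almost level for Slfn8, Slfn9 and Slfn3, while Slfn2 is at 4.83 FPKM in the Tgif1-/- group and 2.18 FPKM in the WT group.

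No Schlafen gene was called different between the groups. A call means a tested gene with a Cuffdiff q at or under 0.05 in the authors' deposited table. Of the 7 members 3 were tested (Slfn2, Slfn4 and Slfn5), and 0 of these 3 were called, against 0.662% of the 10730 tested genes (0.289% higher and 0.373% lower). At an unadjusted p under 0.05 there was 1, Slfn2, higher in the Tgif1-/- group, against 1.85% of tested genes that were higher, 3.55% that were lower and 5.41% in either direction at that level. All 3 tested members had higher values in the Tgif1-/- group, while 42.6% of tested genes did. The 4 members without a test were all lower by value, so 3 of the 7 members were higher. The tests of Slfn3, Slfn8 and Slfn9 failed in the authors' processing, and Slfn1 had too few reads to be tested, so these 4 could not be called whatever their values. Failed tests make up 24.2% of the 12452 rows with at least 1 FPKM in a group.

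Slfn2 had the largest difference among the tested members, a log2 ratio of 1.15 for Tgif1-/- over WT, or 2.21-fold. The error implied by the deposited statistic was 0.431, which gives a 95% interval of 0.302 to 1.99 on the log2 scale, or 1.23-fold to 3.97-fold. Cuffdiff gave it p = 0.00780 and q = 0.382 in the authors' deposited table, so it did not pass the threshold over the whole table, where 219 tested genes had a p that small or smaller. Among the 534 tested genes of like level, 4 including Slfn2 had a log2 ratio at least as high. A value at least 2-fold higher in the Tgif1-/- group was found for 1.74% of all tested genes. The gene lies on chromosome 11 at positions 82878614 to 82884180 as the deposited file lists them, on a mouse build that it does not name.

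Slfn5 had a log2 ratio of 0.35 with an implied error of 0.21 and a 95% interval of -0.064 to 0.758, and the authors' deposited table lists p = 0.0978 and q = 1.00 for it from Cuffdiff. As a fold, that interval runs from 0.957 to 1.69. Slfn4 had a log2 ratio of 0.29 with an implied error of 0.76, and its interval of -1.20 to 1.79 holds both a fall and a rise of more than 2-fold, with p = 0.701 and q = 1.00 from Cuffdiff in the authors' deposited table. At the level of Slfn4 the data thus give little precision, and its implied error was 1.34 times the median of tested genes at like level. The same ratio of errors was 1.16 for Slfn2 and 0.755 for Slfn5.

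The log2 ratio of Slfn2 exceeded that of Slfn5 by 0.799 with a 95% interval of -0.14 to 1.74. It exceeded that of Slfn4 by 0.852 with an interval of -0.87 to 2.57. The log2 ratio of Slfn4 minus that of Slfn5 was -0.0533, with an interval of -1.61 to 1.50. All 3 intervals include 0, so the tested members were not told apart in their difference between groups, and they were not shown to act alike. These intervals take the errors of the genes as independent, which reads shared between relatives would break.

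The 3 members with failed tests had close values in the groups. The log2 ratio of their FPKM was -0.0092 for Slfn8, -0.13 for Slfn9 and -0.13 for Slfn3, with no error or p. Slfn1 had a log2 ratio of -3.96, which rests on values under 0.3 FPKM and became -1.63 with 0.1 FPKM added to each group and -0.31 with 1 FPKM added. The median over all 7 members was -0.0092, which is the value of Slfn8, a member with no test. Over the tested members alone the median was 0.35, the value of Slfn5, beside -0.032 over all tested genes.

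**Figure D2:**
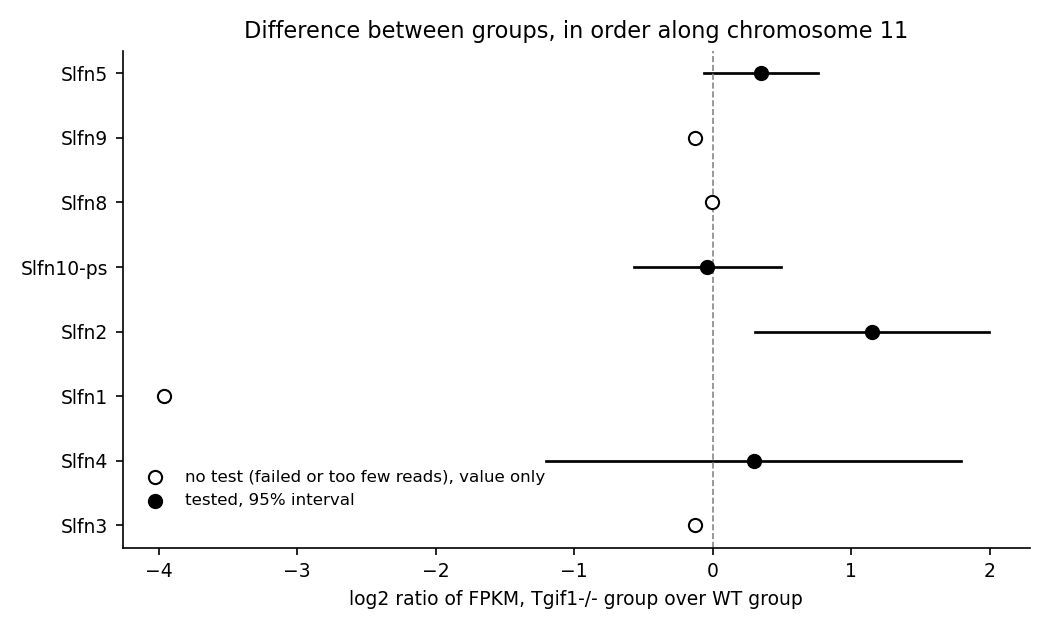
Log2 ratio of FPKM, Tgif1-/- group over WT group, for the 7 Schlafen genes and the pseudogene Slfn10-ps in their order along chromosome 11, with filled points and 95% intervals from the deposited statistic where tested and open points with no interval where not. Slfn2 has the only interval clear of 0 (0.302 to 1.99), and the open Slfn1 point at -3.96 comes from very low values.

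The 7 genes lie in 1 cluster on chromosome 11 that spans 264 kb of the table's positions, and the only other row inside it is the pseudogene Slfn10-ps (ENSMUSG00000072621). Slfn10-ps stood at 5.35 FPKM in the Tgif1-/- group and 5.49 FPKM in the WT group. Its log2 ratio was -0.038 with an interval of -0.571 to 0.494, and Cuffdiff's p was 0.887 in the authors' deposited table. Slfn2 thus lies between Slfn10-ps, whose values were close, and Slfn1, whose values were near 0. The Schlafen-like gene Slfnl1 is on chromosome 4 and stood at 0.540 FPKM in the Tgif1-/- group and 0.268 FPKM in the WT group, with a p of 0.163 in the authors' deposited table.

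Neighbouring genes within 500 kb of the cluster gave 0 calls among 13 tested of 25, beside 0.662% of all tested genes, with 6 higher and 7 lower by value and a median log2 ratio of -0.063. Before adjustment, 2 of them had a Cuffdiff p under 0.05, as did 5.41% of all tested genes. Cct6b, a chaperonin subunit gene, was at 0.390 FPKM in the Tgif1-/- group and 0.116 FPKM in the WT group (p = 0.0319 in the authors' deposited table). Gm11428 was at 212 FPKM in the Tgif1-/- group and 289 FPKM in the WT group (p = 0.0333 in the authors' deposited table). The next smallest p, 0.120 in that table, was that of Mmp28, a matrix metalloproteinase gene at 0.715 FPKM in the Tgif1-/- group and 1.23 FPKM in the WT group.

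**Figure D3:**
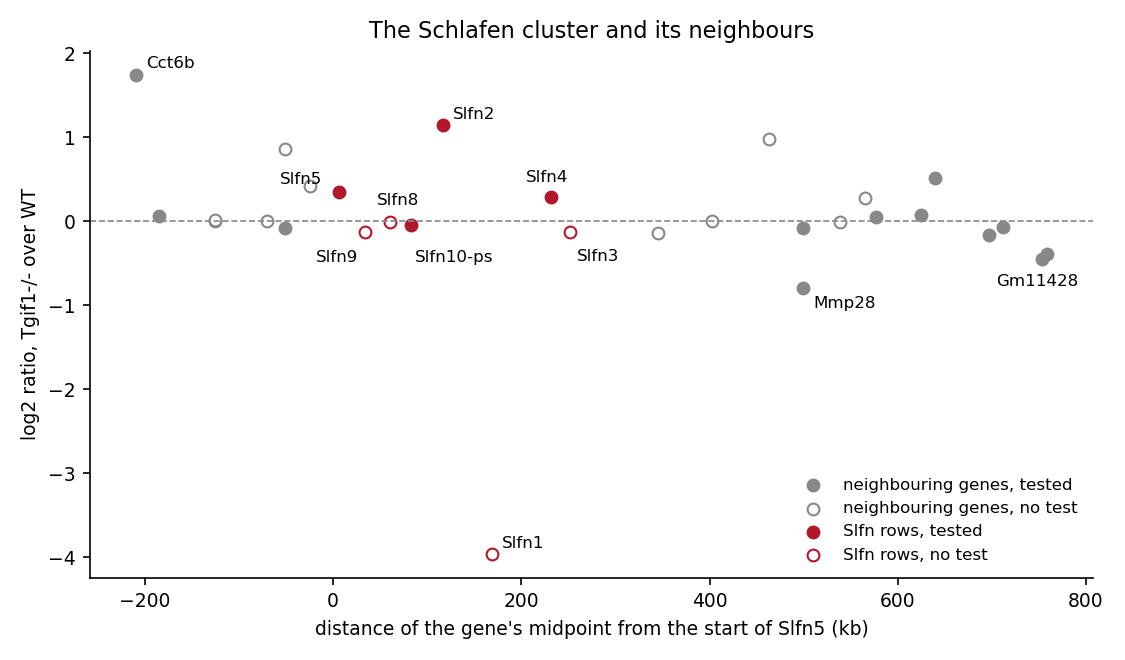
Log2 ratio of FPKM, Tgif1-/- over WT, against the distance in kb of each gene's midpoint from the start of Slfn5, for Slfn rows (red) and neighbours within 500 kb (grey), filled where tested and open where not. Slfn2 (1.15) stands above the Slfn rows on either side of it, and the tested neighbours run from -0.789 to 1.75.

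Relatives in this cluster share sequence, which bears on how reads could be assigned. In the longest GENCODE M21 transcript of each gene, all 50-base words were looked up in the transcripts of the other Slfn rows. Of the words of Slfn8, 15.4% occurred in another Slfn gene, and of those of Slfn9 11.2%, all of them in each other or in Slfn10-ps. Of the words of Slfn3, 7.97% occurred in Slfn4, and 6.45% of the Slfn4 words occurred in Slfn3. Slfn2 shared 4.27% of its words with Slfn4, Slfn1 shared 0.606% with other Slfn genes, and Slfn5 shared 0. No source used here says how reads with several matches were treated. The values of Slfn1, Slfn2, Slfn3, Slfn4, Slfn8, Slfn9 and Slfn10-ps are therefore uncertain, by an amount that these percentages do not bound. Slfn5 is overlapped on the opposite strand by Slfn5os across 559 of 6326 exon bases in GENCODE M21, and with no strand stated their reads cannot be told apart. Slfn10-ps, which was tested, shared 19.7% of its words.

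**Figure D4:**
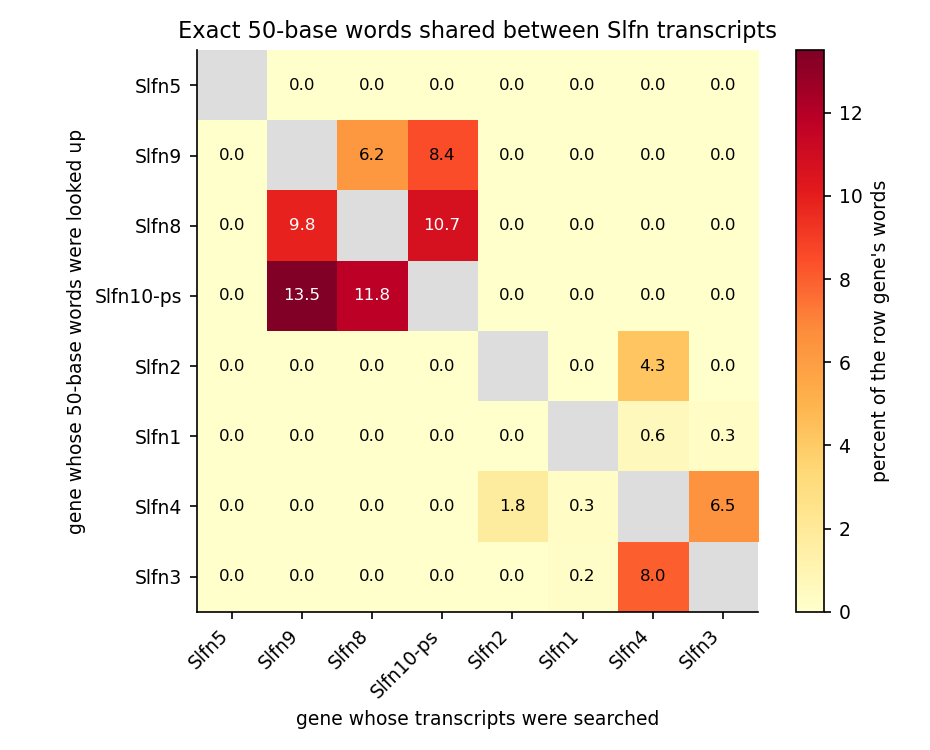
Percent of the 50-base words in the longest transcript of each row gene that occur exactly in any transcript of the column gene, in their order along chromosome 11. Slfn8, Slfn9 and Slfn10-ps form one block of sharing, Slfn3 and Slfn4 another, and the Slfn5 row is at 0 throughout.

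Genes of the interferon response, which is known to induce Schlafen genes, held no call. Among the 40 listed genes found, 32 were tested, 16 were higher and 16 lower by value, 0 were called, and 0 had a Cuffdiff p under 0.05 before adjustment. Over all tested genes these shares were 0.662% and 5.41%, so a count of 0 calls in a list of this size is near the background. The median log2 ratio was 0.0023, beside -0.032 over all tested genes, and single ratios ran from -1.12 to 0.500. The lowest of these came from a gene under 1 FPKM in both groups. Ifnar1, a chain of the type I receptor, was at 61.4 FPKM in the Tgif1-/- group and 75.4 FPKM in the WT group (Cuffdiff p = 0.170 in the authors' deposited table). Eif2ak2, the kinase PKR that senses double-stranded RNA, was at 26.9 FPKM in the Tgif1-/- group and 33.7 FPKM in the WT group (Cuffdiff p = 0.0685 in the authors' deposited table), and Zbp1, a sensor of Z-form nucleic acids, was at 7.96 FPKM in the Tgif1-/- group and 5.63 FPKM in the WT group.

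**Figure D5:**
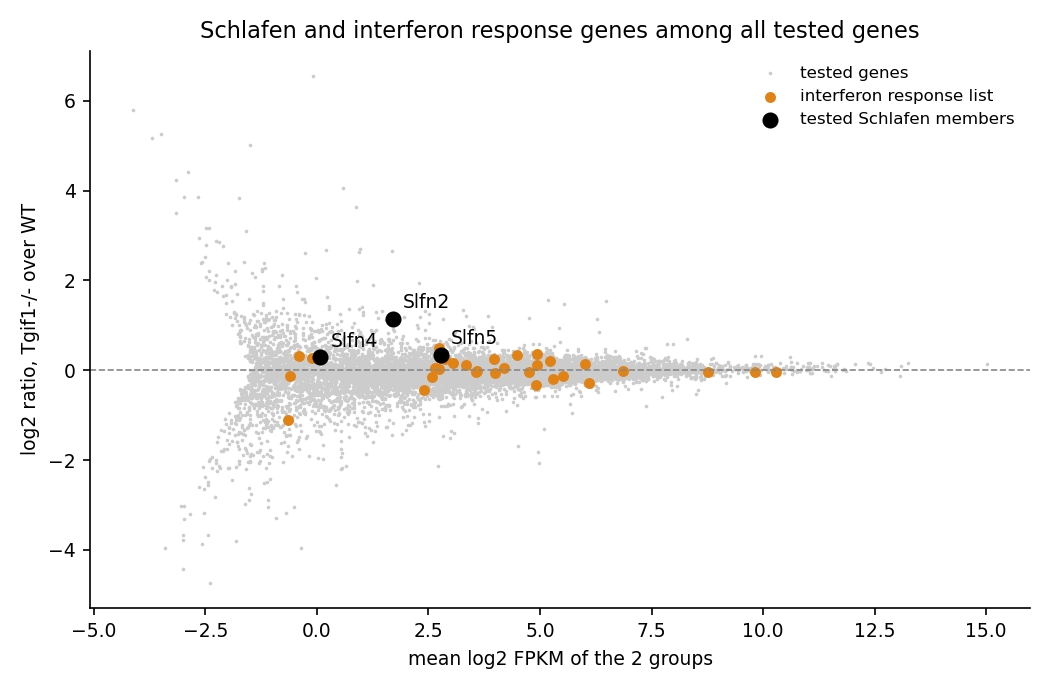
Log2 ratio, Tgif1-/- over WT, against mean log2 FPKM for all tested genes with values above 0 in both groups (grey), the tested interferon response genes (orange) and the 3 tested Schlafen members (black). Slfn2 (1.15) lies at the upper edge of the genes of its level, Slfn4 and Slfn5 lie within them, and the interferon genes are split evenly, 16 above 0 and 16 below.

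Genes tied to the other known roles of the family gave no call, in 3 lists so small that the background share of 0.662% also gives close to none. Of 16 tested quiescence genes 0 were called and 1 was lower at an unadjusted p under 0.05 (3.55% of all tested genes were), the cell cycle inhibitor gene Cdkn1a at 34.3 FPKM in the Tgif1-/- group and 47.3 FPKM in the WT group (p = 0.0272 in the authors' deposited table). In that list, Tsc2, an inhibitor of mTOR signalling, was at 13.3 FPKM in the Tgif1-/- group and 16.5 FPKM in the WT group, Foxo3, a stem cell quiescence factor, was at 79.3 FPKM in the Tgif1-/- group and 84.1 FPKM in the WT group, and Klf2, a T cell quiescence factor, was at 0.631 FPKM in the Tgif1-/- group and 1.04 FPKM in the WT group. The median of that list was -0.049, with 7 higher and 9 lower by value.

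Of 13 tested genes of tRNA cleavage and processing, 0 were called and 0 had a Cuffdiff p under 0.05 before adjustment (5.41% of all tested genes did), with a median of -0.0054. Ang, angiogenin, the nuclease that cuts tRNA under stress, was at 1.98 FPKM in the Tgif1-/- group and 3.19 FPKM in the WT group. Pop1, a subunit of RNase P, was at 9.52 FPKM in the Tgif1-/- group and 12.8 FPKM in the WT group, and Trdmt1, a tRNA methyltransferase gene, at 8.28 FPKM in the Tgif1-/- group and 10.6 FPKM in the WT group. Atf4, a stress-response transcription factor, was at 74.0 FPKM in the Tgif1-/- group and 66.3 FPKM in the WT group.

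Of 6 tested genes among the Slfn1 partner Dnajb6 and the G1 cyclins and kinases, 0 were called and 0 had a Cuffdiff p under 0.05 before adjustment, again beside 0.662% and 5.41% of all tested genes. Ccnd1, cyclin D1, which Slfn1 is known to lower in T cells, was at 26.0 FPKM in the Tgif1-/- group and 29.8 FPKM in the WT group. Dnajb6, a chaperone that brings Slfn1 into the nucleus, was at 194 FPKM in the Tgif1-/- group and 168 FPKM in the WT group. Ccnd2 was at 73.4 FPKM in the Tgif1-/- group and 85.9 FPKM in the WT group, and Ccnd3 at 63.6 FPKM in the Tgif1-/- group and 58.3 FPKM in the WT group. The median of these genes was -0.019.

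The genes nearest to the 3 most abundant members in their pair of group values were sought by distance in log2 FPKM over the 2 group values. Mrpl50 (31.9 FPKM in both groups) and Hook3 lay nearest to Slfn8, B9d2 and 1810009A15Rik nearest to Slfn9, and Pan2 and Pex6 nearest to Slfn3, at distances of at most 0.0190. So close a match over 2 values is a likeness of level only.

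Tgif1 itself had 88.6 FPKM in the samples labelled Tgif1-/- and 71.5 FPKM in those labelled WT, with a failed test. Its value was thus not lower in the Tgif1-/- group. The labels do not say which part of the gene the allele lacks, so a value over the whole gene cannot check the label. Every direction given here is between the groups as they are labelled. The defining LSK genes were present in both groups, with Kit at 193 FPKM in the Tgif1-/- group and 202 FPKM in the WT group, and Ly6a (Sca-1) at 120 FPKM in the Tgif1-/- group and 88.9 FPKM in the WT group. Of the 14 LSK markers 9 had a failed test, Kit among them. Of the 5 tested, 0 were called (0.662% of all tested genes were), and by value 1, Ly6a, was higher and 4 were lower. Of the 14 T and NK cell markers 9 were under 1 FPKM in both groups, Cd3e among them, and 0 of 9 tested were called. At an unadjusted p under 0.05 there was 1, Klrd1, lower in the Tgif1-/- group (3.55% of all tested genes were). Lck was at 22.7 FPKM in the Tgif1-/- group and 27.7 FPKM in the WT group, with a failed test. The list summed to 350 FPKM in the Tgif1-/- group and 353 FPKM in the WT group. Of these sums, Nkg7 gave 316 FPKM in the Tgif1-/- group and 313 FPKM in the WT group. Among 17 monocyte and macrophage markers found, 0 of 10 tested were called, with sums of 522 FPKM in the Tgif1-/- group and 523 FPKM in the WT group. Of 8 tested mast cell and basophil markers 4 were called, all higher in the Tgif1-/- group (0.289% of all tested genes were called higher), and their list summed to 457 FPKM in the Tgif1-/- group and 212 FPKM in the WT group. Of 8 tested B cell markers 4 were called, all lower in the Tgif1-/- group (0.373% of all tested genes were called lower). By value 7 were lower and 1, Cd79b, was higher. Cd79b was at 27.8 FPKM in the Tgif1-/- group and 27.6 FPKM in the WT group. The B cell list summed to 58.5 FPKM in the Tgif1-/- group and 120 FPKM in the WT group. Of 11 tested neutrophil and granule markers 0 were called. At an unadjusted p under 0.05, 5 were lower (3.55% of all tested genes were). The median log2 ratio of the 11 tested was -0.85. This list summed to 3775 FPKM in the Tgif1-/- group and 4167 FPKM in the WT group. Mpo, with a failed test, gave 3055 FPKM of the sum in the Tgif1-/- group and 3289 FPKM in the WT group. The part of these cell types in the Slfn2 values was not tested, and in bulk RNA fewer cells of a type and less RNA per cell cannot be told apart.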

How the data were processed

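RNA from LSK cells was sequenced in 3 Tgif1-/- and 3 WT samples. The submitters' processing notes name TopHat (alignment) and Cuffdiff (group comparison), without versions. The deposited table gives, per the file headers, the authors' FPKM value of each group, log2 fold change, test statistic score, p-value and q-value for 22381 genes. The deposited fold change is WT over Tgif1-/- and was turned round. Of these genes, 10730 were tested, 3143 failed and 8455 had too few reads. The build listed there is hg19, which is human, although the gene identifiers are those of mouse. Positions are the table's, counted from 1, on a mouse build not given in the sources used here.

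No test could be run on 1 value per group, so the deposited Cuffdiff results were read. The deposited p-values equal the two-sided normal value of the statistic (10683 of 10683 genes with values above 0 in both groups, within 0.001), and adjusting them by Benjamini-Hochberg returns the deposited q-values (10730 of 10730, within 0.001). The implied error is the log2 fold change divided by the statistic. This error belongs to the authors' model, not to a spread seen between samples, and intervals at 95% use it. A gene of like level is one in the same of 20 equal bins of mean log2 FPKM.

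The Schlafen genes and all lists were chosen with earlier results of these data known. Named are all Slfn rows, Tgif1, and from each list the called genes or up to 4 with the smallest p and at least 1 FPKM in a group. Of the genes so selected, 1 is not reported here. For neighbours within 500 kb these are the called ones and 3 with the smallest p. Of the marker lists, summaries are given, and some markers are named, chosen after their values were seen. Kit, Ly6a, Cd3e, Nkg7, Lck, Mpo and Cd79b are named as defining or abundant markers, and Klrd1 for its p. Alternatives were q thresholds of 0.01 and 0.1, at least 1 FPKM in a group, pseudocounts of 0.1 and 1 FPKM, centring on the median of tested genes, and an error floor. The error floor sets each implied error to at least the median of genes at like level. Promoter windows come from RefSeq (GRCm38.p6) and transcripts from GENCODE M21, and no protein sequences were used. Python 3.11.15, pandas 2.3.3, numpy 2.4.6, scipy 1.17.1, matplotlib 3.10.9 and Biopython 1.88 were used. Calls after the Benjamini-Hochberg adjustment, with and without the error floor, were counted on simulated data. The noise there was drawn from the implied errors themselves, so the simulation does not check those errors.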

Additional observations from a re-analysis of the deposited data

How the results depend on the processing

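The count of called Schlafen genes was 0 with a q threshold of 0.01, with 0.1, with rows under 1 FPKM in both groups left out, and with the error floor. The counts of the 4 pathway lists and of the neighbours were also 0 in each of these, the error floor having been added for them after the data were seen. A threshold of 0.01 and the error floor can only remove calls. With 0 calls at the main setting, their outcome was fixed in advance for the members and the lists alike. The floor gave Slfn2 an adjusted p of 0.968. Its own Cuffdiff p of 0.00780 did not change, because its error was already above the median of genes at like level. The adjusted p rose because the floor raised the errors of other genes. Of the 68 alternative values, 66 stayed within the limit set for them, a count that includes those whose outcome was fixed in advance. That limit was the same count for calls, the gene's implied error for a ratio (for members without a test, the median implied error of tested genes at like level), the median implied error of its tested genes for a list's median, and an interval that includes 0 for a difference between members. The exceptions were both the log2 ratio of Slfn1, which was -3.96, became -1.63 with a pseudocount of 0.1 FPKM and became -0.310 with a pseudocount of 1 FPKM. Adding a constant shrinks a ratio of low values by construction. Centring moved every ratio and list median by the same amount, set by the median of -0.032 over all tested genes. That amount is under every limit for a ratio or a list median, so centring could take no value past its limit. The log2 ratio of Slfn2 was 1.11 and 0.873 with these pseudocounts and 1.18 when centred. The differences between members kept intervals that include 0 with the error floor. The floor can only widen an interval, so this outcome was also fixed in advance. No paired analysis was possible because the table holds 1 value per group and the replicate numbers of the groups are not shared. No sample could be left out for the same reason. The depth is unknown, so no interval for counting error can be given, and 4 of the 7 members carry no test.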
